A study of Arabidopsis thaliana with 20 samples.

Results

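DM1-DM2d adr1s shoots were compared directly with DM6-DM7 adr1s shoots, the 2 autoimmune lines of Arabidopsis thaliana from which the ADR1 genes had been knocked out. The comparison took all nuclear genes, 32548 of the 32833 genes counted, in 6 libraries of 20. A filter on low counts left 23118 of them for testing. The members were chosen by library and genome and not by their values.

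Both lines were made in the reference accession Col-0 by transformation with a pair of DANGEROUS MIX (DM) genes, DM1 with DM2d or DM6 with DM7. In both, ADR1, ADR1-L1 and ADR1-L2 had then been disrupted together by CRISPR-Cas9, which the labels call adr1 triple. RNA came from aerial tissue of seedlings grown on medium in long days, with 3 libraries a line and 3 of Col-0 adr1s, which carries the same knockout without a DM pair. These 9 libraries share label batch 3. The labels give harvest at 12 days after sowing (DAS) for DM1-DM2d and at 14 DAS for DM6-DM7, and state no age or time of day for the adr1s plants. Age and DM pair therefore cannot be told apart if the adr1s plants followed the same schedule. Nor do the labels say whether a line is 1 transformant. The lines with ADR1 intact, DM1-DM2d and DM6-DM7 (3 libraries each), and their own controls, Col-0 12 DAS (2 libraries) and Col-0 14 DAS (3 libraries), served only to ask whether a line difference was also there when ADR1 was present.

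DM genes are immune receptor loci and their partners, whose natural alleles trigger autoimmunity when they meet in a single plant. DM1 and DM2d are nucleotide-binding leucine-rich repeat receptors (NLRs) of the TIR class, which signal through EDS1 and PAD4 to the helper NLRs of the ADR1 family. DM6 is an NLR of the coiled-coil class (RPP7) and DM7 belongs to the RPW8/HR family. Salicylic acid, made downstream of EDS1, and jasmonate, made from plastid lipids after wounding or herbivory, are hormones whose response genes often move in opposite directions in leaves. Jasmonate acts by removing JAZ repressors from MYC transcription factors, and JAZ genes and enzymes of jasmonate synthesis and breakdown are themselves induced by it.

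The 6 libraries held 49723321 to 58867219 counts, so a gene with 3 counts stood at 0.043 to 0.048 counts per 1e+06 counts (CPM). CPM is scaled to the library total and not to gene length, so levels are compared between libraries and never between genes. On log2 values the libraries of a line correlated at 0.994 to 0.996, libraries of the 2 lines at 0.982 to 0.987, and either line with Col-0 adr1s at 0.949 to 0.972. Plastid genes took 0.054 to 0.17% of counts in the 6 libraries. In the lines with ADR1 they took 10 to 42.2% in DM1-DM2d and Col-0 12 DAS and below 0.2% in the other groups, and the part of this in the comparisons that use those libraries was not tested. Of the genes named below, JAZ10, COI1, JR1, ADR1-L1, NRG1.3, FKF1, LUX, RVE1, LNK2, GMI1, DCL1, NRT1.8, APR3, EARLI1, RPP7, CHI-B, FLC, AT3G44670, AT4G19410, AT1G53440 and AT5G60250 overlap another annotated gene. Without the counting options their reads cannot be told apart.

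Leaf and root markers went with the label of shoots. Light-harvesting genes summed to 45390 to 56420 CPM in DM1-DM2d adr1s. The sum was 50420 to 64090 CPM in DM6-DM7 adr1s, and Col-0 adr1s had 91030 to 101900 CPM. The 5 root markers tested summed to 10.6 to 12.6 CPM and 11.95 to 13.52 CPM, and RHD6, RSL4 and PLT1 did not pass the filter. Meristem and floral markers summed to 62.54 to 83.8 CPM in DM1-DM2d adr1s, against sums of 42.16 to 46.21 CPM for DM6-DM7 adr1s and 35.34 to 38.78 CPM for Col-0 adr1s, groups that do not overlap. These are whole shoots, so fewer cells of a type and less RNA per cell cannot be told apart.

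Of the 23118 genes, 1252 (5.42%) were higher and 815 (3.53%) lower in DM1-DM2d adr1s than in DM6-DM7 adr1s, 2067 (8.94%) in all, at an adjusted p below 0.05 in edgeR's quasi-likelihood test. The balance of directions depends on scaling: with totals and scaling from nuclear genes only, 2250 passed, 1135 higher and 1115 lower. It depends on the libraries too: without DM6-DM7 adr1s replicate 3, 863 were higher and 840 lower. Larger differences leaned to DM1-DM2d adr1s, with 470 genes higher and 153 lower among those at least 2-fold apart (2.69% of genes) and 187 against 55 at 4-fold. The median log2 change over all genes was -0.0103. Each line differed from Col-0 adr1s at many more genes, 9948 (43%) for DM1-DM2d adr1s and 7279 (31.5%) for DM6-DM7 adr1s, and at least 2-fold at 15.8% and 10.1% of genes. These 2 comparisons share the Col-0 adr1s libraries. The share called was uneven over expression: with genes split into 4 equal bins by mean CPM, 3.08% passed in the lowest bin and 14.8% in the highest. The part of power in this was not tested. The count fell to 972 without DM1-DM2d adr1s replicate 2, to 1300 without replicate 3, and to 1081 and 1085 without DM6-DM7 adr1s replicates 1 and 2.

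**Figure D1:**
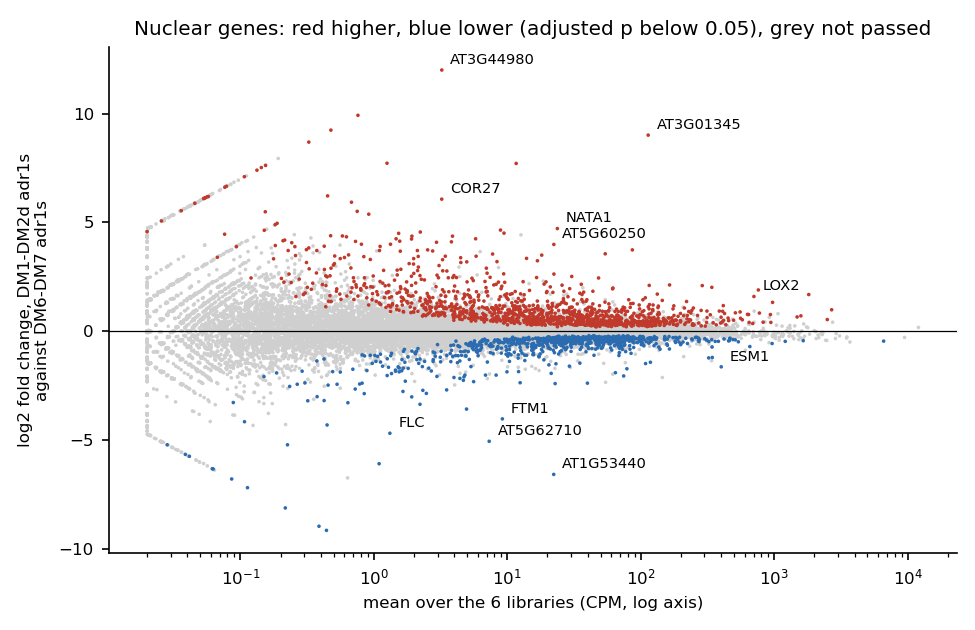
Each point is a nuclear gene that passed the filter, by its mean CPM over the 6 libraries (log axis, means below 0.02 drawn at 0.02) and its log2 fold change, DM1-DM2d adr1s against DM6-DM7 adr1s. Red points (1252) are higher and blue points (815) lower at an adjusted p below 0.05, and the far points above 4-fold lie mostly on the higher side.

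Where Col-0 adr1s stood differs by direction. Of 1239 genes that were higher in DM1-DM2d adr1s and whose libraries did not overlap between the 2 lines, Col-0 adr1s lay below both lines for 538 (43.4%) and level with DM6-DM7 adr1s for 424 (34.2%). Of 810 such genes that were lower, it lay above both lines for 280 (34.6%) and level with DM6-DM7 adr1s for 274 (33.8%). Levels were read by library ranges here, and overall 8199 of 23118 genes (35.5%) had line ranges that did not overlap.

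Many jasmonate genes were higher in DM1-DM2d adr1s. The 5 lists covered synthesis, turnover, perception, wound outputs and jasmonate-ethylene outputs. Over these lists 29 of 63 genes tested were higher in DM1-DM2d adr1s and 1 was lower (5.42% and 3.53% of all genes). The 2 members that were not tested were MYC2, listed at 0 in all 20 libraries, and DAD1. Leaving out a library lowered the count of higher genes to 18 without DM6-DM7 adr1s replicate 1 or 2, to 20 without DM1-DM2d adr1s replicate 2 or 3, and to 21 and 22 without the other libraries. Against Col-0 adr1s, 29 of the 63 were higher and 8 lower in DM1-DM2d adr1s (24.1% and 19% of all genes), and 11 were higher and 26 lower in DM6-DM7 adr1s (18.8% and 12.7% of all genes). These 2 comparisons share their control.

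**Figure D2:**
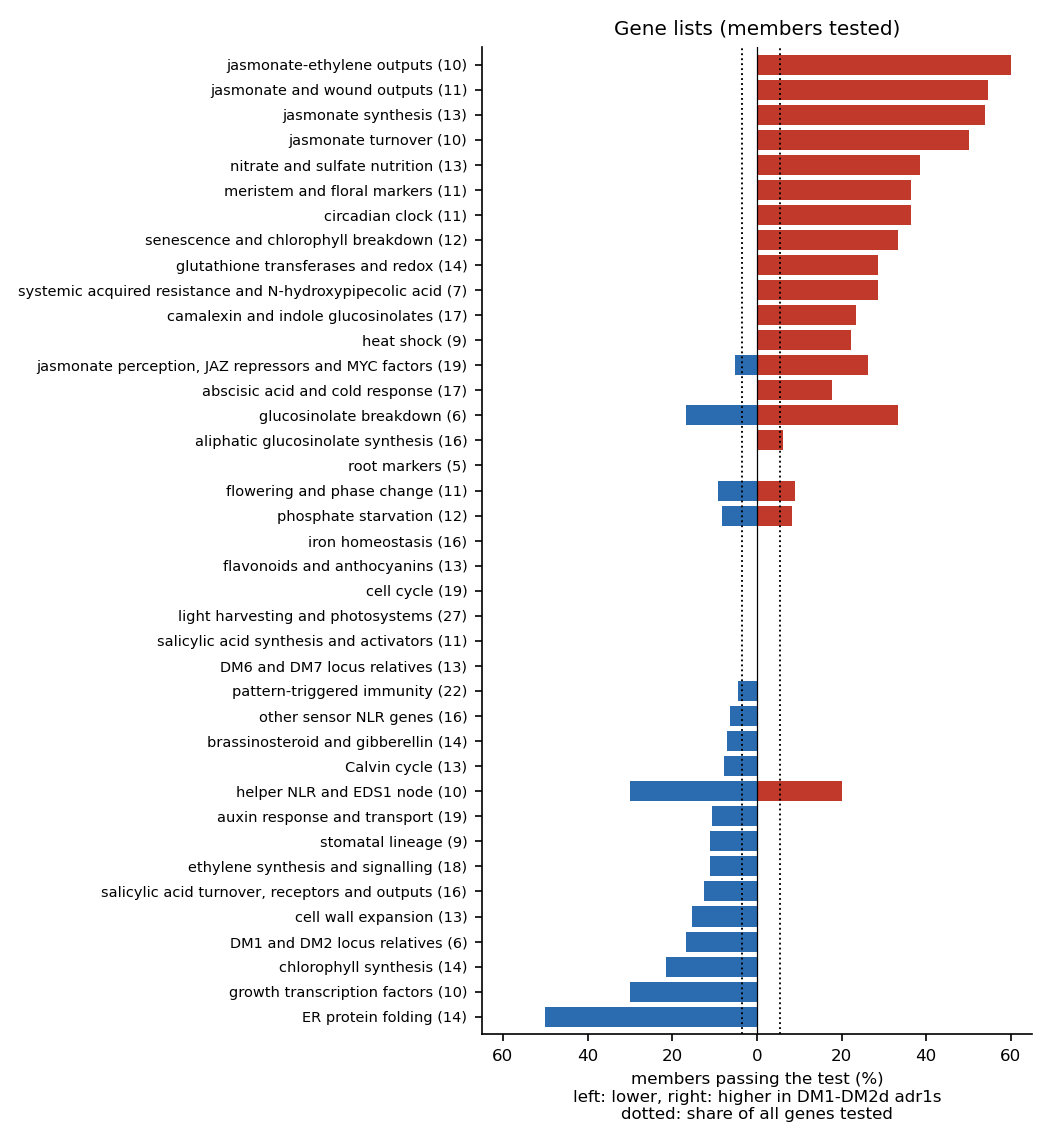
Bars give the percentage of tested members of each gene list (number tested in brackets) that were higher (red, right) or lower (blue, left) in DM1-DM2d adr1s than in DM6-DM7 adr1s, with dotted lines at the shares of all genes, 5.42% and 3.53%. Jasmonate lists stand at the top, with 6 of 10 and 6 of 11 output genes higher, and ER protein folding at the bottom, with 7 of 14 lower.

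In jasmonate synthesis 7 of 13 genes were higher and none lower (median log2 change 0.6), and 6 or 7 were higher in each of the fits that left out 1 library. LOX2 (AT3G45140), the lipoxygenase that oxidises plastid linolenic acid, stood at 916, 1260 and 1000 CPM in the DM1-DM2d adr1s libraries and at 352, 296 and 401 CPM in those of DM6-DM7 adr1s. The groups do not overlap, and both lie above Col-0 adr1s at 204, 140 and 217 CPM. The difference was 1.6 ± 0.22 on the log2 scale (SE, adjusted p = 0.000372).

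AOS (AT5G42650, on chromosome 5, 17097564 to 17099595, TAIR10.1), allene oxide synthase, makes the committed step from the lipoxygenase product. It was at 93.6, 103 and 106 CPM in DM1-DM2d adr1s and 41.6, 53 and 45.4 CPM in DM6-DM7 adr1s, a log2 difference of 1.11 ± 0.092 (adjusted p = 3.15e-06). Col-0 adr1s, at 105, 96.5 and 102 CPM, was level with DM1-DM2d adr1s, and DM6-DM7 adr1s was the low group. The 300 bases before its start are printed because they end in a G-box, the letters CACGTG that MYC factors are known to bind, here in capitals. RefSeq's TAIR10.1 assembly is the source of this and the other promoters.
AOS promoter, chr5:17099596-17099895, minus strand: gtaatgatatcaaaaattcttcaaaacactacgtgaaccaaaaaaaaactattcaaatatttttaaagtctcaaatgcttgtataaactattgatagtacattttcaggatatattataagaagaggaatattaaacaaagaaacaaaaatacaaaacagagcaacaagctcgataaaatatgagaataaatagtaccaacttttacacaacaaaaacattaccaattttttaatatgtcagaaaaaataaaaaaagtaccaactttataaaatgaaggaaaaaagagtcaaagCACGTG
A G-box in either orientation was found in the same window of 8 of the 63 jasmonate genes (12.7%) and of 1720 of 21939 protein-coding genes tested (7.84%). Among the 30 that passed the test it was found at AOS, JAZ2, JAZ8 and ORA59.

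The allene oxide cyclases follow AOS in the pathway. AOC1 (AT3G25760) stood at 53.3, 55.5 and 57.4 CPM against 17.2, 16.7 and 17.7 CPM, a log2 difference of 1.69 ± 0.22 (adjusted p = 0.000252). AOC2 (AT3G25770), its tandem neighbour, stood at 182, 150 and 231 CPM against 42.9, 44.3 and 43.3 CPM (2.11 ± 0.29, adjusted p = 0.000356). In both genes every DM1-DM2d adr1s library was above every DM6-DM7 adr1s library. Copies as alike as these can share reads, and how the authors' counting treated shared reads is not given in the sources used here.

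Other synthesis genes differed less. LOX3, a lipoxygenase gene like LOX2, was at 25.6, 29 and 26.6 CPM against 14.3, 15.2 and 15 CPM (log2 0.87, adjusted p = 0.00243). OPCL1, a CoA ligase that prepares the precursor for beta-oxidation, was at 54.2, 53.4 and 56.8 CPM against 33.9, 34.6 and 39.7 CPM (log2 0.6, adjusted p = 0.00382). OPR3, which reduces the cyclopentenone precursor, was at 37.5, 43.2 and 46 CPM against 26.1, 23.2 and 26.5 CPM (log2 0.74 ± 0.18, adjusted p = 0.0162). All 3 genes show no overlap between the lines, and OPR3 did not pass without DM1-DM2d adr1s replicate 2 or 3 or without DM6-DM7 adr1s replicate 2, with a log2 change of 0.64 to 0.78 over the 6 such fits.

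Of the 10 genes of jasmonate turnover 5 were higher and none lower (median 0.87), and 4 were higher in each of the fits that left out 1 library. JOX2 (AT5G05600), an oxygenase that hydroxylates jasmonic acid, was at 51.6, 61.6 and 42.2 CPM in DM1-DM2d adr1s and 11.9, 5.96 and 9.16 CPM in DM6-DM7 adr1s (2.52 ± 0.28, adjusted p = 5.8e-05). Col-0 adr1s lay between the lines at 24.5, 20.8 and 23 CPM. JOX3, of the same family, stood at 0.875, 4.48 and 2.16 CPM against 0.159, 0.148 and 0.158 CPM (4 ± 0.83, adjusted p = 0.00696), with replicate 2 the highest library. The amidohydrolase genes IAR3 and ILL6, which release jasmonic acid from its isoleucine conjugate, differed by 0.85 (adjusted p = 0.00247) and 1.16 (adjusted p = 0.00237). CYP94C1, which oxidises the conjugate, differed by 0.89 (adjusted p = 0.0326) and did not pass in any of the 6 fits that left out 1 library (0.68 to 1.03).

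The 19 genes of perception and repression moved less: 5 were higher and 1 lower (median 0.35), and with a library left out 1 or 2 were higher. The receptor gene COI1 (log2 -0.02) and MYC3 (0) did not pass. JAZ10 (AT5G13220), a repressor induced by the hormone, was at 8.95, 7.19 and 5.98 CPM against 3.97, 3.31 and 3.09 CPM (1.09 ± 0.24, adjusted p = 0.00865). Both lines lay below Col-0 adr1s, at 15, 16.7 and 12.5 CPM. JAZ9 showed the same order without overlap, with means of 41.4 ± 3.6 CPM in DM1-DM2d adr1s, 21.9 ± 3.9 CPM in DM6-DM7 adr1s and 106 ± 16 CPM in Col-0 adr1s (SD, n = 3). Its difference between the lines was 0.92 (adjusted p = 0.0338) and did not pass in any of the 6 fits with a library left out (0.75 to 0.99).

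JAZ8 (AT1G30135), a repressor that lacks the usual degron, passed at a very low level. It stood at 0.258, 0.194 and 0.521 CPM in DM1-DM2d adr1s and at 0.0319, 0.0591 and 0 CPM in DM6-DM7 adr1s, where each library is near the level of 3 counts (log2 3.33 ± 0.96, adjusted p = 0.0384). The adjusted p lay between 0.0572 and 0.125 when a library was left out. Its G-box, in capitals, lies close to the start.
JAZ8 promoter, chr1:10596052-10596351, plus strand: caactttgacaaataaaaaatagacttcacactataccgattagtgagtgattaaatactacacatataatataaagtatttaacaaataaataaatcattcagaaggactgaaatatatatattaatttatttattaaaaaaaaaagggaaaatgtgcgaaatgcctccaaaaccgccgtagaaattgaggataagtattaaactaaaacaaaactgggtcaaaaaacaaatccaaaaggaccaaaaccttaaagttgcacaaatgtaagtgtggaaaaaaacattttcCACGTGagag
JAZ2 (0.5, adjusted p = 0.0233) and NINJA (0.2, adjusted p = 0.0365), the adaptor that ties JAZ proteins to a corepressor, were also higher. MYC4, a transcription factor of the pathway, was lower at -0.32 (adjusted p = 0.0459). JAZ2 passed in 2 of the 6 fits with a library left out, MYC4 in 1 and NINJA in 0.

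Among 11 jasmonate and wound output genes 6 were higher and none lower, with a median of 2.59, and 4 to 6 were higher with a library left out. CORI3 (AT4G23600), a cystine lyase gene induced by coronatine, stood at 111, 243 and 130 CPM in DM1-DM2d adr1s and 9.25, 13.3 and 13.6 CPM in DM6-DM7 adr1s (3.74 ± 0.41, adjusted p = 8.07e-05). NATA1 (AT2G39030), which acetylates ornithine in defence against insects, stood at 41.1, 70.5 and 25.5 CPM against 1.9, 1.21 and 2.11 CPM (4.72 ± 0.85, adjusted p = 0.00314). In both genes replicate 2 was the highest library of DM1-DM2d adr1s and the lines did not overlap. Col-0 adr1s stood between the lines for CORI3, at 23.7, 23.7 and 35.5 CPM, and below both for NATA1, at 0.163, 0.0384 and 0.697 CPM.

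The other members that passed were CLH1, a chlorophyllase (1.44, adjusted p = 0.00128), JR1, a jacalin lectin (0.99, adjusted p = 0.00391), BGLU18, a beta-glucosidase (1.71, adjusted p = 0.0338), and VSP1, a vegetative storage protein (3.29 ± 0.9, adjusted p = 0.0328). Of the 6 fits with a library left out, BGLU18 and VSP1 passed only in that without DM1-DM2d adr1s replicate 1 (1.43 to 1.9 and 3.03 to 3.57 over the 6). VSP2, its close copy, was at 4.86, 15.6 and 9.97 CPM against 1.83, 2.07 and 1.14 CPM and did not pass (2.59, adjusted p = 0.0792). The lines do not overlap at VSP2, and Col-0 adr1s, at 14.6, 6.97 and 8.17 CPM, was level with DM1-DM2d adr1s.

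In the branch that jasmonate shares with ethylene, 6 of 10 genes were higher and none lower (median 2). PR4 (AT3G04720), a hevein-like chitin-binding protein, stood at 383, 673 and 351 CPM against 78, 115 and 134 CPM (2.1 ± 0.3, adjusted p = 0.000506), both far above Col-0 adr1s at 17.8, 17.4 and 28.7 CPM. PDF1.3 (AT2G26010), a plant defensin, stood at 97.2, 109 and 93.7 CPM against 11.1, 1.61 and 12.7 CPM (3.56 ± 0.75, adjusted p = 0.00846). ORA59, the transcription factor that drives these defensins, was at 10.4, 6.92 and 6.97 CPM against 2.52, 2.04 and 1.93 CPM (1.9, adjusted p = 0.0179).

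The count of 6 was not steady: 2 genes passed without DM6-DM7 adr1s replicate 1, 3 without its replicate 2, and 4 or 5 without any other library. PDF1.2b differed by 4.56 (adjusted p = 0.00842, and 0.0509 without DM6-DM7 adr1s replicate 1), PDF1.2a by 3.24 (adjusted p = 0.0469, passing in 0 of the 6 fits) and CHI-B, a basic chitinase, by 1.03 (adjusted p = 0.0259), with overlap between the lines. ORA59 passed in 2 of the 6 fits (1.64 to 2). The PDF1.2 genes are near-identical copies that can share reads. The 18 ethylene synthesis and signalling genes gave 0 higher and 2 lower, with a median of -0.09.

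**Figure D3:**
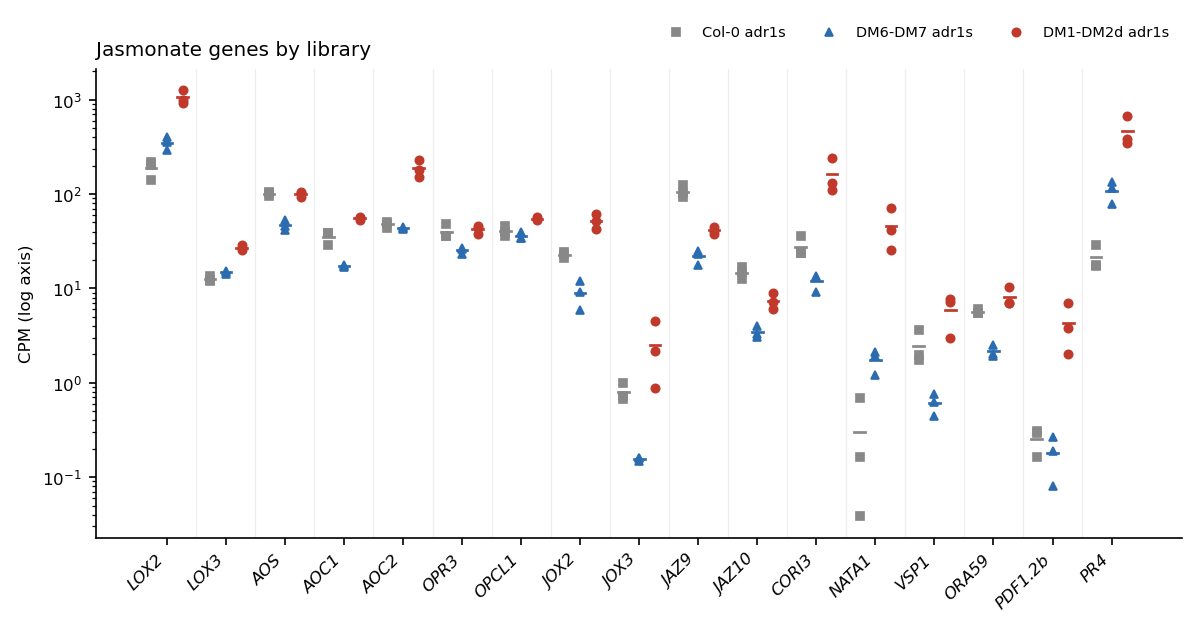
Each symbol is a library and each bar a group mean, in CPM on a log axis, for 17 jasmonate genes in Col-0 adr1s (grey squares), DM6-DM7 adr1s (blue triangles) and DM1-DM2d adr1s (red circles). The 17 genes were picked from those called higher, of which 1239 of 1252 show no overlap between the lines. That the red circles lie above the blue triangles without overlap follows from this choice. The grey squares lie level with, between, above or below them by gene.

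With ADR1 present some synthesis and output genes differed in the other direction, while turnover and perception genes did not turn as lists. Each intact line was set against its own Col-0 group, and the effect of DM6-DM7 was subtracted from that of DM1-DM2d, a comparison that shares no library with the direct comparison of adr1s lines. LOX2 then stood at -3.92, AOC1 at -5.89, AOC2 at -1.99 and AOS at -0.88 on the log2 scale, all called in the other direction. In that comparison 22.2% of all genes were higher and 27.2% lower. Of 13 synthesis genes 6 were lower and 3 higher there. Of 11 wound outputs 3 were lower, and of 10 jasmonate-ethylene outputs 2, with 0 higher. The lower share of the outputs is thus near that of all genes. The difference between the 2 line differences was 5.52 for LOX2 (adjusted p = 2.52e-08), 7.57 for AOC1 (3.51e-09), 4.1 for AOC2 (7e-06) and 1.99 for AOS (6.6e-08).

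Over the 63 jasmonate genes, 14 were higher and 12 lower with ADR1 intact, and 24 had a higher and 5 a lower line difference without ADR1 (24.5% and 19% of all genes). Among turnover genes JOX2 stood at 0 with ADR1 intact (adjusted p = 1), and IAR3 and CYP94C1 were called in the same direction at 1.46 and 1.7. The turnover list had 4 of 10 higher and 0 lower there (median 1.48), and the perception list 7 of 19 higher and 1 lower (median 0.35, the same as in the direct comparison). CORI3 (-1.38, adjusted p = 0.0509) and PR4 (0.19, adjusted p = 0.752) did not pass with ADR1 intact. The comparison with ADR1 intact joins label batches 1 and 2, and plants of different age, which cannot be told apart from the lines.

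**Figure D4:**
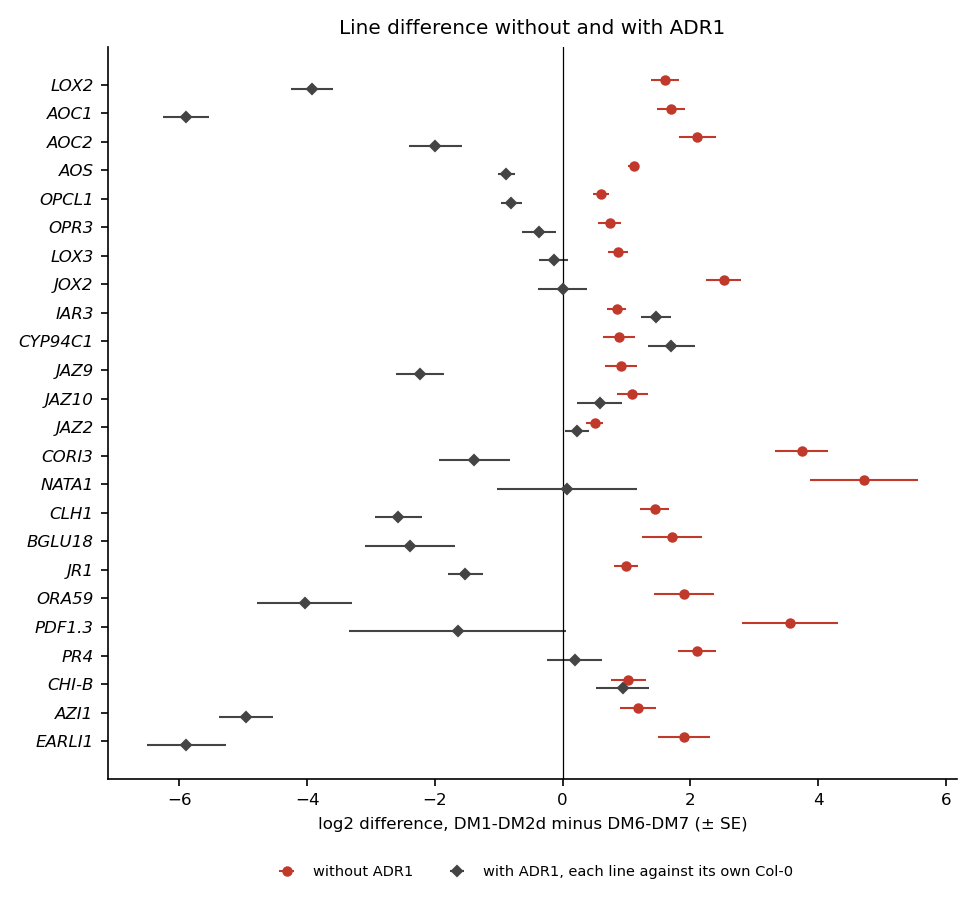
Points give the log2 difference, DM1-DM2d minus DM6-DM7, with bars of 1 SE, for 24 genes without ADR1 (red circles, the lines compared directly) and with ADR1 (black diamonds, each line against its own Col-0 group). All 24 genes were picked from those called higher without ADR1, so all red circles lie right of 0 by that choice. The diamonds of LOX2, AOC1, JAZ9, CLH1, BGLU18, ORA59, AZI1 and EARLI1 lie left of -2.

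Across all genes such contrasts were common. Of the 1252 genes higher in DM1-DM2d adr1s, 301 (24%) were also higher with ADR1 intact, 428 (34.2%) were lower there, and 523 were not called. Of the 815 lower genes, 393 (48.2%) were also lower with ADR1 intact and 156 (19.1%) were higher there. The background is wide, since 49.4% of all genes were called with ADR1 intact and 43.5% in the difference of the differences.

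The knocked-out helper NLR genes still gave counts. CRISPR lesions need not lower RNA, the edited bases were not given, and gene totals therefore do not check the knockout. ADR1 (AT1G33560) was at 58.8, 67.7 and 59.8 CPM in DM1-DM2d adr1s, 31, 37.7 and 43.9 CPM in DM6-DM7 adr1s and 9.03, 8.68 and 12.4 CPM in Col-0 adr1s (0.73 between the lines, adjusted p = 0.0284). ADR1-L1 (AT4G33300) had the opposite order of the lines, 53.6, 55 and 60.1 CPM against 93.5, 120 and 126 CPM, with Col-0 adr1s lowest at 29.8, 30.2 and 32.4 CPM (-1.01 ± 0.14, adjusted p = 0.00027). ADR1-L2 was at 26.5, 26 and 26.4 CPM against 14.1, 17.4 and 19.3 CPM (0.63, adjusted p = 0.0269). The lines did not overlap at any of the 3 genes, and ADR1 and ADR1-L2 each passed in 1 of the 6 fits with a library left out, without DM6-DM7 adr1s replicate 3.

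Among 10 tested genes around the helper NLRs and EDS1, 2 were higher and 3 lower (median -0.33), against 5.42% and 3.53% of all genes. The 2 higher genes were ADR1 and ADR1-L2 themselves. NRG1.3, a relative of the NRG1 helpers, was at 0.0574, 0.258 and 0.284 CPM against 0.957, 0.96 and 1.84 CPM (-2.65, adjusted p = 0.00919). NRG1.1 differed by -0.27 (adjusted p = 0.0421) and passed in 2 of the 6 fits with a library left out. EDS1 (56.3, 43.3 and 69.6 CPM against 64.5, 74.9 and 82.7 CPM) and PAD4 (-0.49, adjusted p = 0.461) overlapped between the lines and did not pass.

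Loci related to the introduced DM genes gave 1 call, and counts per gene cannot separate an introduced allele from the copy in Col-0. HR4, of the DM7 family, was at 238, 259 and 284 CPM against 268, 436 and 464 CPM (-0.58, adjusted p = 0.493), both far above Col-0 adr1s at 26.7, 32.5 and 45.1 CPM. RPP7 was at 215, 158 and 182 CPM against 170, 214 and 210 CPM (-0.1). Of 13 DM6 and DM7 relatives 0 passed in edgeR or DESeq2, with 2 at an unadjusted p below 0.05, and of 6 DM1 and DM2 relatives 1 was lower, AT3G44670 of the RPP1 cluster, at 95, 87.1 and 94.8 CPM against 109, 125 and 126 CPM (-0.38, adjusted p = 0.011).

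Salicylic acid genes gave 2 calls between the lines in edgeR. Of 11 genes of synthesis and its activators 0 passed (median -0.1), with 1 at an unadjusted p below 0.05 and 1 in DESeq2. Of 16 turnover, receptor and output genes 0 were higher and 2 lower (median -0.06). With 8.94% of all genes called, 5.42% higher and 3.53% lower, counts this small do not set these lists apart. Against Col-0 adr1s the same lists gave 9 and 15 higher genes in DM1-DM2d adr1s (medians 3.55 and 3.91). In DM6-DM7 adr1s they gave 9 and 15 (4.22 and 4.07). Of all genes 24.1% and 18.8% were higher in those 2 comparisons. WRKY70, a transcription factor downstream of salicylic acid, was at 75.3, 62.6 and 105 CPM against 56.6, 78.6 and 108 CPM, groups that overlap wholly, with Col-0 adr1s at 4.5, 3.73 and 4.67 CPM. Its log2 difference of 0 had an SE of 0.34.

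The 2 lower genes were PR5 and DLO1. PR5 (AT1G75040), a thaumatin-like protein, stood at 49.2, 47.9 and 95.8 CPM against 116, 226 and 175 CPM (-1.42 ± 0.26, adjusted p = 0.00314). DLO1, a hydroxylase that breaks down salicylic acid, stood at 4.61, 4.86 and 12.3 CPM against 20, 40.8 and 54.5 CPM (-2.4, adjusted p = 0.0345), and passed in 2 of the 6 fits with a library left out. In both genes replicate 3 was the highest library of DM1-DM2d adr1s and still below every library of DM6-DM7 adr1s.

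Systemic acquired resistance gave 2 higher genes of 7 (5.42% of all genes were higher). EARLI1 (AT4G12480) and AZI1 (AT4G12470) are tandem lipid-transfer-like genes, and AZI1 is needed for priming by azelaic acid. EARLI1 stood at 1070, 1320 and 1220 CPM against 277, 291 and 399 CPM (1.9 ± 0.41, adjusted p = 0.00963), and AZI1 at 521, 598 and 610 CPM against 234, 195 and 333 CPM (1.18, adjusted p = 0.0148). Col-0 adr1s was lowest at both, at 25, 61 and 103 CPM for EARLI1. Its call was lost without DM6-DM7 adr1s replicate 1 or 2 (adjusted p up to 0.0543), and that of AZI1 without DM1-DM2d adr1s replicate 2 or 3 or DM6-DM7 adr1s replicate 1 or 2. With ADR1 intact both were called in the other direction, at -5.89 and -4.96.

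Genes of protein folding in the endoplasmic reticulum (ER) were lower in DM1-DM2d adr1s, 7 of 14 with none higher (median -0.37). Of all genes 3.53% were lower. Against Col-0 adr1s, 13 of the 14 were higher in DM1-DM2d adr1s (24.1% of all genes) and 14 of 14 in DM6-DM7 adr1s (18.8% of all genes). SHD (AT4G24190), the ER HSP90 chaperone, was at 469, 460 and 569 CPM against 813, 819 and 809 CPM, with Col-0 adr1s at 335, 332 and 322 CPM (-0.7 ± 0.11, adjusted p = 0.00108). CRT3, a calreticulin needed to fold immune receptor kinases, was at 93.9, 90 and 124 CPM against 136, 195 and 178 CPM (-0.72, adjusted p = 0.0178). CRT1A (-0.38) and ERDJ3B (-0.51) differed less. SHD passed in all 6 fits with a library left out, but the count of 7 fell to 1 without DM1-DM2d adr1s replicate 1 or 2 and to 3 or 4 without a DM6-DM7 adr1s library.

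Genes known to peak in the evening were higher in DM1-DM2d adr1s. This list of 11 genes, and those of morning clock, DNA damage, small RNA and first chromosome 1 genes, were put together after their values had been seen, so their counts describe them and support nothing. Of the 11 evening genes 8 were higher and none lower (median 2.12). COR27 (AT5G42900), which represses clock genes in the afternoon and evening, was at 3.99, 3.97 and 11.1 CPM in DM1-DM2d adr1s and 0.0957, 0.0591 and 0.127 CPM in DM6-DM7 adr1s (6.07 ± 0.64, adjusted p = 5.1e-05). FKF1 (AT1G68050), a blue-light receptor of the photoperiod pathway, was at 14.1, 12.1 and 28.2 CPM against 0.845, 0.62 and 0.919 CPM (4.51, adjusted p = 0.00116). PRR5 (AT5G24470), a pseudo-response regulator, was at 41.2, 30.4 and 53.7 CPM against 11.3, 6.92 and 10.6 CPM (2.12, adjusted p = 0.022).

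Replicate 3 was the highest DM1-DM2d adr1s library at all 3 genes, and the lines never overlapped. The promoters of FKF1 and PRR5 are shown because they hold the evening element, AAAATATCT, in capitals in either orientation.
FKF1 promoter, chr1:25508339-25508638, plus strand: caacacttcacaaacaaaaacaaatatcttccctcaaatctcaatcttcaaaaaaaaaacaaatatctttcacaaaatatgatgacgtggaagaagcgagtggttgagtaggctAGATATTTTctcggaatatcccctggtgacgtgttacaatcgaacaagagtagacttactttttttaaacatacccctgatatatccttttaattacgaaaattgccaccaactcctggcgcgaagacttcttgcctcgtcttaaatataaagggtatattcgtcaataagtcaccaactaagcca
PRR5 promoter, chr5:8358547-8358846, minus strand: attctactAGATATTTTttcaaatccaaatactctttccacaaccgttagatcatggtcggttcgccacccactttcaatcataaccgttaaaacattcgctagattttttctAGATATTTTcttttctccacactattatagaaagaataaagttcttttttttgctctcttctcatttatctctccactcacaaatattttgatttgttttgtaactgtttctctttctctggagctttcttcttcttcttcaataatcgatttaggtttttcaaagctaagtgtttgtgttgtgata
The element was found in 6 of the 11 promoters (54.5%) and in 635 of 21939 protein-coding genes tested (2.89%), while none of the 9 morning genes held it. Both lists were put together by known time of expression after the values were seen, so these counts say nothing about the line difference. BOA, an evening gene among the 6, was not called (adjusted p = 0.0615). PRR5 holds 2 sites in the printed window and FKF1 holds 1.

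COR27 was high in both groups of label batch 1 and low in both of batch 2. It was at 65.1, 57.3 and 45.1 CPM in DM1-DM2d and at 81.1 and 81.3 CPM in Col-0 12 DAS, but at 0.176, 0.032 and 0.0535 CPM in DM6-DM7 and at 0.0601, 0 and 0 CPM in Col-0 14 DAS. Evening genes are known to vary with the hour of the day, which the labels do not give for the harvest, and its part in the difference between the adr1s lines was not tested. COR28 (4.09), PRR3 (3.45), ELF4 (3.38), LUX (1.01) and TOC1 (0.72) were also higher. Of the 9 morning genes 3 were lower, RVE1 (-1.38), LNK2 (-0.61) and RVE4 (-0.45). PRR5 passed in 1 of the 6 fits with a library left out, TOC1 in 4 and RVE1 in 2, and 6 to 9 evening genes passed in each.

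DNA damage response genes were also higher, 10 of 18 with none lower (median 0.89), against 5.42% and 3.53% of all genes. This list too was put together after the values were seen. With a library left out 8 to 10 were higher. XRI1 (AT5G48720), induced by X-rays, stood at 22.5, 25.5 and 25 CPM against 9.47, 8.74 and 9.7 CPM (1.39 ± 0.12, adjusted p = 5.1e-06). GMI1 (AT5G24280), induced by gamma rays, stood at 28.3, 33.3 and 35.3 CPM against 8.02, 4.68 and 7.43 CPM (2.27 ± 0.24, adjusted p = 2.68e-05). PARP2 (AT4G02390), a poly(ADP-ribose) polymerase, stood at 26.1, 34.2 and 32.6 CPM against 9.41, 8.53 and 8.1 CPM (1.83 ± 0.19, adjusted p = 2.33e-05).

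No library of DM1-DM2d adr1s came near those of DM6-DM7 adr1s at these 3 genes, and for PARP2 and XRI1 the DM6-DM7 adr1s level was not called different from that of Col-0 adr1s. SMR7, a cell cycle inhibitor, stood at 2.96, 4.1 and 3.87 CPM against 0.0957, 0.162 and 0.317 CPM (4.24, adjusted p = 0.00213), and NAC103 and BRCA1 differed by 2.01 and 1.17. The kinase gene ATM (-0.21, adjusted p = 0.412) and the transcription factor SOG1 (-0.26, adjusted p = 0.238), which act upstream of these genes, did not pass. With ADR1 intact the lines were not called different at PARP2 (0.09), XRI1 (-0.09), NAC103 (-0.16) or SMR7 (0.35), and GMI1 and BRCA1 were called in the other direction. The 19 cell cycle genes gave 0 calls in edgeR and in DESeq2 and 0 at an unadjusted p below 0.05 (median -0.12).

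DCL1 (AT1G01040, on chromosome 1, 23121 to 31227), the RNase III enzyme that cuts microRNA precursors, was lower in DM1-DM2d adr1s. It stood at 30.3, 27.3 and 27.7 CPM against 58.8, 63.8 and 60.1 CPM, with Col-0 adr1s at 47.6, 51.9 and 50.4 CPM (-1.1 ± 0.091, adjusted p = 3.15e-06). DM1-DM2d adr1s was the low group, and with ADR1 intact the lines were not called different (0.26, adjusted p = 0.123). Of the 15 small RNA pathway genes tested DCL1 was 1 of 2 that were lower, and AGO2, a slicer of antiviral defence, was higher at 0.96. DCL1 lies near the end of chromosome 1, where 5 of 6 listed genes were lower, among them NAC001 (-2.01) and ARV1 (-1.14). That list does not hold every tested gene there. The microRNA locus MIR838 (AT1G01046), outside the list, was not called (-1.51, adjusted p = 0.0646).

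Some precursor loci of microRNAs were higher in DM1-DM2d adr1s. Of 325 annotated loci 103 could be tested, and 13 (12.6%) were higher in DM1-DM2d adr1s and none lower, with 80 of 103 positive in sign. Over all genes 5.42% were higher and 3.53% lower, with a median log2 change of -0.0103. Of the 13, 6 passed without DM6-DM7 adr1s replicate 1 or 2, and 8 to 10 without any other library. The summed level of all loci ranged from 109 to 122 CPM in DM1-DM2d adr1s, 54.4 to 65.8 CPM in DM6-DM7 adr1s and 67.1 to 71.1 CPM in Col-0 adr1s. It moved with label batch in the intact groups, at 622 to 937 CPM in DM1-DM2d and 640 to 752 CPM in Col-0 12 DAS, but 62.1 to 62.6 CPM in DM6-DM7 and 65.2 to 88.6 CPM in Col-0 14 DAS. The part of what differs between those batches in the difference between the adr1s lines was not tested. These are counts over precursor loci in RNA-seq, not levels of mature microRNAs. Of the 13 loci 6 encode the following mature sequences (RefSeq, TAIR10.1), printed so that the families can be told by their seeds, bases 2 to 8, in capitals.
miR156c-5p: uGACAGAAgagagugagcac
miR168a-5p: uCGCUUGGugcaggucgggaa
miR167a-5p: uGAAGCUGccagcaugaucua
miR166b-3p: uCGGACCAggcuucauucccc
miR160a-5p: uGCCUGGCucccuguaugcca
miR160c-5p: uGCCUGGCucccuguaugcca
Of these the mature sequences of MIR160a and MIR160c are the same and share their seed. MIR156c (AT4G31877), whose product delays the adult phase, was at 2.71, 2.73 and 2.92 CPM against 0.0797, 0.103 and 0.254 CPM (4.25 ± 0.65, adjusted p = 0.000746). MIR168a (AT4G19395), whose product targets AGO1, was at 3.06, 3.21 and 4.37 CPM against 0.223, 0.517 and 0.507 CPM (3.09 ± 0.58, adjusted p = 0.00324). Neither pair of groups overlapped, and both calls held with each library left out.

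MIR167a, whose product targets auxin response factors, was at 1.94, 1.23 and 1.91 CPM against 0.383, 0.31 and 0.174 CPM (2.54, adjusted p = 0.0118), and was not called without DM6-DM7 adr1s replicate 2 or 3. MIR166b (4.39), MIR160a (4.07) and MIR160c (3.71) rest on levels below 0.1 CPM in DM6-DM7 adr1s, near or below 3 counts a library. MIR160a and MIR166b passed in 1 and 2 of the 6 fits with a library left out. MIR850, MIR863 and MIR825 were higher too, but overlap other annotated genes and may count their reads.

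**Figure D5:**
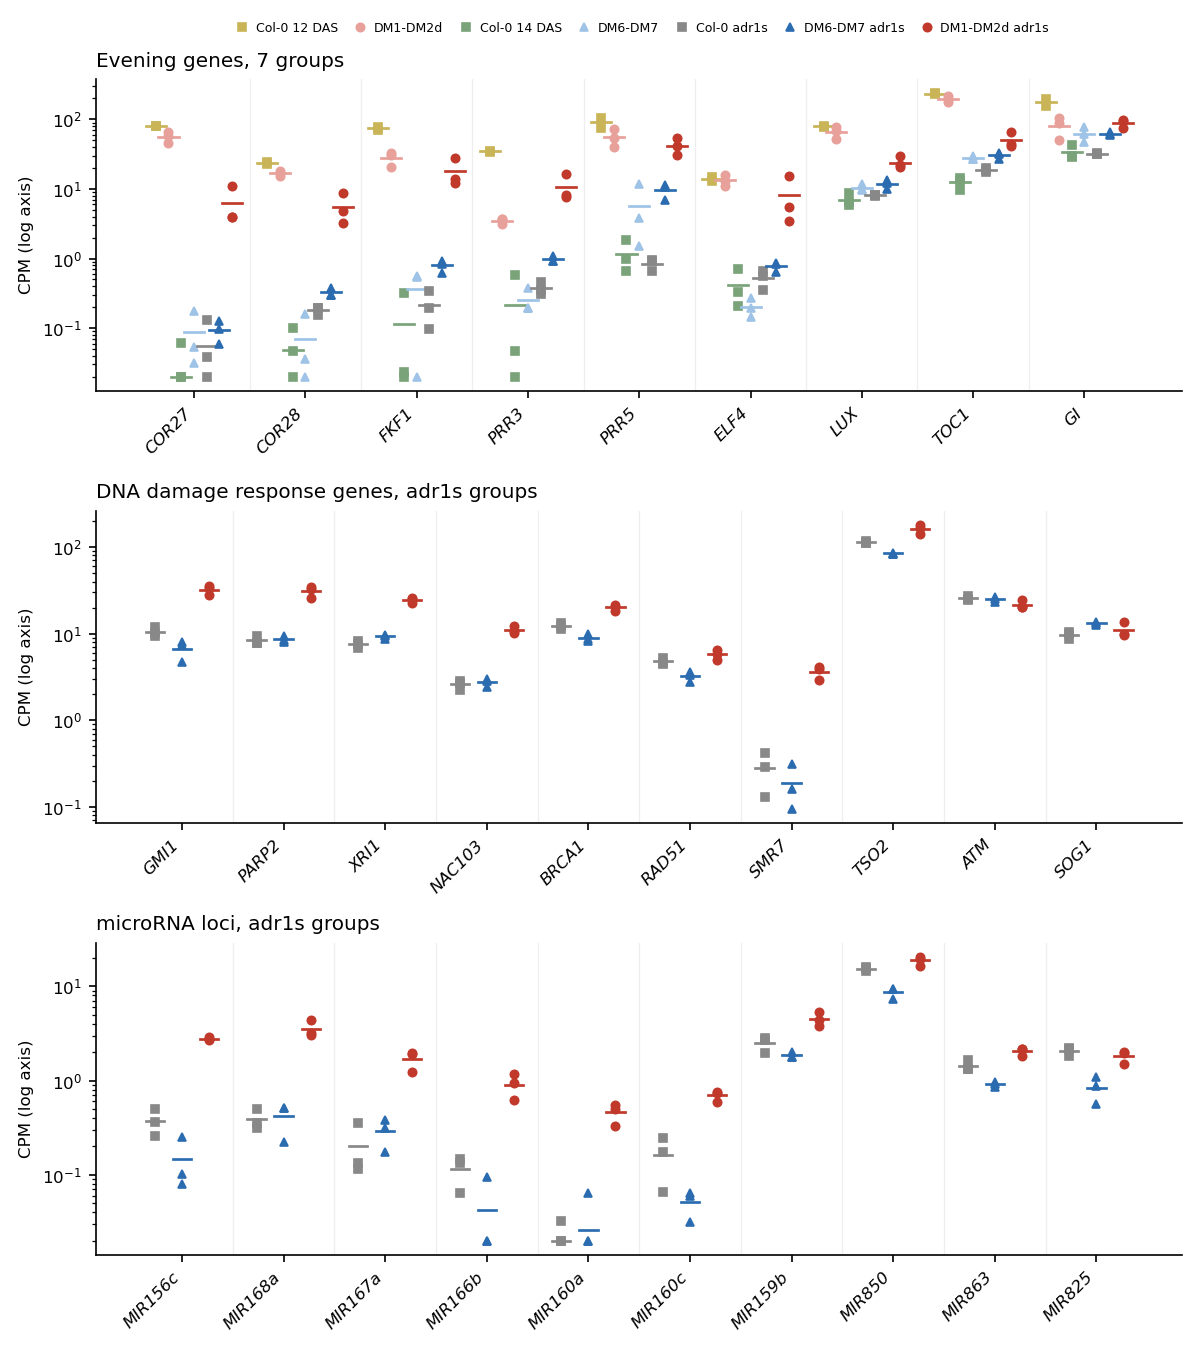
Each symbol is a library and each bar a group mean, in CPM on log axes, with values below 0.02 drawn at 0.02. Evening genes are shown in all 7 groups (top), DNA damage response genes (middle) and microRNA loci (bottom) in the 3 adr1s groups. At COR27 the DM1-DM2d and Col-0 12 DAS libraries stand at 45.1 to 81.3 CPM. In the lower panels the red circles of DM1-DM2d adr1s stand above the blue triangles of DM6-DM7 adr1s at every gene but ATM and SOG1. The other genes there were picked from those called higher, so this follows from the choice.

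Sulfate and nitrate genes gave 5 of 13 higher (5.42% of all genes) and none lower, with 4 or 5 higher when a library was left out. NRT1.8 (AT4G21680), which unloads nitrate from the xylem under stress, stood at 75.3, 109 and 60.4 CPM against 11.6, 20.5 and 12.7 CPM (2.45 ± 0.43, adjusted p = 0.00254). APR3 (AT4G21990), of sulfate reduction, stood at 191, 190 and 253 CPM against 82.4, 80.6 and 74.1 CPM (1.42 ± 0.19, adjusted p = 0.000312). For APR3 DM6-DM7 adr1s was the low group, with Col-0 adr1s at 154, 137 and 190 CPM, and for NRT1.8 Col-0 adr1s was lowest, at 1.34, 1.42 and 4.21 CPM.

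In camalexin and indole glucosinolate synthesis 4 of 17 genes were higher (5.42% of all genes), and 2 or 3 with a library left out. CYP83B1 (AT4G31500), which makes the indole glucosinolate core, led them at 338, 280 and 391 CPM against 149, 150 and 181 CPM (1.07 ± 0.13, adjusted p = 0.000116). In glucosinolate breakdown ESM1 (AT3G14210), which favours isothiocyanates over nitriles, was lower at 181, 182 and 224 CPM against 590, 551 and 678 CPM (-1.63 ± 0.15, adjusted p = 5.1e-06). The lines did not overlap at either gene. DM1-DM2d adr1s was the high group at CYP83B1, and DM6-DM7 adr1s the high group at ESM1, where Col-0 adr1s stood at 195, 278 and 262 CPM.

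In 4 lists of growth genes, those that differed were lower in DM1-DM2d adr1s, while meristem and floral markers gave 4 higher and 0 lower. EXPA1 (AT1G69530), an expansin that loosens cell walls, was at 244, 153 and 184 CPM against 472, 466 and 418 CPM (-1.22 ± 0.22, adjusted p = 0.00233). TMM, a receptor of the stomatal lineage, differed by -1.04 (adjusted p = 0.00234), and the growth factor gene GRF5 by -1.41 (adjusted p = 0.00977). Of 10 growth transcription factors 3 were lower, of 19 auxin genes 2, of 13 cell wall genes 2 and of 9 stomatal genes 1. None was higher in these 4 lists. As 3.53% of all genes were lower and 5.42% higher, counts of 1 or 2 are too small to set a list apart. With a library left out the auxin count ran from 0, without replicate 2 of either line, to 5, without DM6-DM7 adr1s replicate 3, where the stomatal count was 2. Of 27 light-harvesting genes 0 passed in edgeR or DESeq2, with 3 at an unadjusted p below 0.05 (median -0.17).

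Of 11 flowering and phase change genes 1 was higher, 1 was lower and 9 did not pass (median 0.08). FT (AT1G65480), the mobile flowering signal, was at 5.52, 2.47 and 2.34 CPM against 0.606, 0.236 and 0.792 CPM (2.66 ± 0.45, adjusted p = 0.00164). FLC (AT5G10140), a repressor of FT, was at 0.0861, 0.0323 and 0.174 CPM against 2.14, 3.01 and 2.46 CPM (-4.68 ± 0.71, adjusted p = 0.000698). MAF5, of the FLC family and not in that list, was at 0.99, 1.47 and 2.4 CPM against 6.57, 8.53 and 6.53 CPM (-2.16 ± 0.33, adjusted p = 0.000712). The lines did not overlap at any of the 3, and FT was called in the other direction with ADR1 intact (-3.31), as was MAF5 (4.37).

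A few loci were near 0 in 1 line only. AT3G01345 (on chromosome 3, 129138 to 130749) stood at 245, 218 and 218 CPM in DM1-DM2d adr1s and 335, 343 and 336 CPM in Col-0 adr1s, but at 0.494, 0.561 and 0.254 CPM in DM6-DM7 adr1s (9.01 ± 0.39, adjusted p = 2.11e-09). It was also low in DM6-DM7 with ADR1 intact, at 5.01, 4.54 and 1.59 CPM, against 334, 292 and 287 CPM in Col-0 14 DAS. The low level thus followed the DM6-DM7 line with and without ADR1.

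AT1G53440 (on chromosome 1, 19945869 to 19951562), a leucine-rich repeat kinase, was the mirror case in part: 0.474, 0.452 and 0.458 CPM in DM1-DM2d adr1s against 44.6, 43.4 and 44.2 CPM in DM6-DM7 adr1s (-6.57 ± 0.22, adjusted p = 1.34e-11). It was at 24, 21.8 and 24.4 CPM in DM1-DM2d with ADR1 intact, so the low level was not seen in the DM1-DM2d line that kept ADR1. AT5G62710 (on chromosome 5, 25187221 to 25190722), another such kinase, was low in DM1-DM2d adr1s at 0.258, 0.484 and 0.552 CPM against 16, 14 and 12.7 CPM, and also in DM1-DM2d at 0.0109, 0.0117 and 0.0914 CPM. Its neighbours TUB2 and TUB3, close copies that can share reads, form with it and AT5G62720 a run of 4 lower genes between 25181296 and 25195071.

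AT5G60250, a RING-type zinc finger gene, was high with the DM1-DM2d pair, at 40.9, 41.1 and 44 CPM in DM1-DM2d adr1s and 38.4, 31.9 and 35.9 CPM in DM1-DM2d, against 3.05, 1.74 and 3.15 CPM in DM6-DM7 adr1s (3.99 ± 0.32, adjusted p = 3.91e-06). AT3G44980 was at 5.32, 7.23 and 6.82 CPM in DM1-DM2d adr1s and had no counts in DM6-DM7 adr1s or Col-0 adr1s, so it was at least 416-fold higher than a level of 3 counts over the DM6-DM7 adr1s group. LTP4, a lipid transfer protein gene, stood at 50.2, 17.1 and 2.16 CPM against 0.207, 0 and 0.127 CPM, and its spread within DM1-DM2d adr1s was wide (7.71 ± 2.1, adjusted p = 0.0289, passing in 1 of the 6 fits with a library left out).

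The next 3 genes are among the 10 higher ones with the lowest adjusted p, so their small spread follows in part from that choice. ARP9, an actin-related protein, was at 31.5, 31.8 and 32.8 CPM against 17.2, 15.8 and 16.5 CPM (0.96 ± 0.074, adjusted p = 2.19e-06). ACC2, the plastid acetyl-CoA carboxylase, was at 40.8, 41.9 and 41.8 CPM against 13.7, 10.2 and 11 CPM (1.84 ± 0.15, adjusted p = 3.15e-06). ABCA10, a transporter, was at 7.2, 7.84 and 9.15 CPM against 0.718, 0.945 and 1.05 CPM (3.16 ± 0.27, adjusted p = 3.99e-06). Both ACC2 and ABCA10 were level between DM6-DM7 adr1s and Col-0 adr1s by range, while ARP9 in both lines lay below Col-0 adr1s at 44, 41.2 and 45.6 CPM.

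Neighbouring genes moved together in 5 places where at least 4 tested genes in a row passed in the same direction. Over all genes 5.42% were higher and 3.53% lower, and how many such runs would be expected was not tested. Only in the run with MIR168a did every member pass in all 6 fits with a library left out. In the remaining runs AT1G27040 and ATHB54 passed in 1 of the 6, AZI1 and AT5G62720 in 2, and CYP705A5 in 3. Besides the TUB2 run, which was lower, the 4 others were higher: AT1G27020 to ATHB54 (chromosome 1, 9378404 to 9393188), the AZI1 and EARLI1 cluster (chromosome 4, 7401087 to 7414955), AT4G19390 to AT4G19410 with MIR168a (chromosome 4, 10574726 to 10585861), and the thalianol cluster with CYP705A5, CYP708A2 and THAS1 (chromosome 5, 19434758 to 19464971), which makes a root triterpene.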

How the data were processed

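Shoot RNA was sequenced in 20 libraries of 7 groups, read from the labels. The authors deposited raw counts per gene, without normalization, from strand-specific libraries read as 150 bp pairs, per the labels. Per the submitters' processing notes the tools included HISAT2 2.2.1 and featureCounts 2.0.1, after fastp 0.23.2, with DESeq2 1.34.0 and the build TAIR10; the counting options are not given in the sources used here. Between 70.3 and 73% of counts below 20 were even in the 6 libraries compared, as when both mates are counted, so 3 counts can be fewer than 3 fragments. Limits from counts cover counting error only.

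A single model over the 20 libraries, with each group as a level, was fitted with edgeR 4.0.16 (R 4.3.3; TMM scaling, filterByExpr with a minimum count of 10, robust quasi-likelihood test). P-values were adjusted by Benjamini-Hochberg over all 23349 genes tested, of which 23118 nuclear genes are reported. The SE is the log2 change divided by the square root of F. Nothing in the labels says whether libraries came from separate plants beyond calling them biological replicates, so p-values measure the spread between these samples. No libraries were duplicates of each other. The 5 contrasts were the lines directly, each line against Col-0 adr1s, the difference of effects with ADR1 intact, and its difference from the direct contrast.

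Members, 39 lists of 530 genes and the naming rule were chosen with earlier results of these data known, and 5 more lists of 60 genes after the values were seen. Named genes were the ADR1 genes and all members of the DM relative, helper NLR and jasmonate lists, the 15 highest and 15 lowest changes without overlap at a mean of at least 2 CPM, the 10 lowest adjusted p in each direction, up to 4 called members a direction of other lists, and members of the added lists; among these, the text prefers calls that held. Positions and sequences were read from RefSeq TAIR10.1. Alternatives were other scalings and filters, DESeq2 1.42.0, smaller fits, a replicate block, stricter thresholds and leaving out each library. The direct contrast was tested on counts drawn from the fitted model (23349 genes, 22983 tested), with 100 genes changed 2-fold and 100 changed 4-fold. It recovered 60% and 77% of these, and 4.86% of calls were false. The false share holds for that setting, with 1 spread per gene in all groups, and is not the error rate of the calls in the data. One promoter sequence is not reported here.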

Additional observations from a re-analysis of the deposited data

Results flagged for a closer look

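A line difference that turned round with ADR1 was seen at 428 genes that were higher and 156 that were lower in DM1-DM2d adr1s: each was called in the other direction with ADR1 intact. That the difference between the 2 line differences also passed at each of them follows from this choice and adds no support. Among the named genes 49 did so, 40 with a positive and 9 with a negative difference of the differences, given here as log2 values. All involve label batches 1 and 2 on the intact side, where batch, age and plastid share (up to 42.2% of counts) cannot be told apart from the lines.

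Jasmonate genes of synthesis stood at 7.57 (AOC1), 5.52 (LOX2), 4.1 (AOC2), 1.99 (AOS) and 1.41 (OPCL1), and those of repression and output at 5.94 (ORA59), 4.1 (BGLU18), 4.01 (CLH1), 3.14 (JAZ9) and 2.51 (JR1). The lipid-transfer-like genes EARLI1 and AZI1 stood at 7.79 and 6.15. In indole and glucosinolate metabolism the values were 2.3 (NSP1), 2.23 (SOT18) and 0.95 (GGP1). Clock genes stood at 7.61 (FKF1), 7 (PRR3), 5.11 (PRR5), 2.15 (TOC1) and 1.84 (LUX), against -4.79 for the morning gene RVE1.

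DNA damage genes stood at 4.62 (GMI1), 2.15 (BRCA1) and 1.66 (SYN2), and microRNA loci at 7.4 (MIR398c), 4.74 (MIR167a) and 3.56 (MIR825). Flowering and meristem genes gave 5.97 (FT), 4.67 (SEP3), 1.89 (LOB) and 1.3 (KNAT1), with -6.53 for MAF5. Immune genes gave -1.14 (AT3G44670) and -1 (NRG1.1), and the ethylene receptor gene ERS2 gave -2.04. The run of neighbours on chromosome 1 gave 7.02 (AT1G27020), 5.6 (ATHB54), 5.52 (AT1G27040) and 2.75 (AT1G27030), and that on chromosome 4 gave 2.12 (AT4G19390) and 2.19 (AT4G19410).

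The remaining named genes were PHT1;1 (6.57), a phosphate transporter, AT4G12290 (3.78), HSP18.2 (2.53) and FTSZ2-2 (1.9) on the positive side, and AT2G39530 (-6.99), EDA36 (-5.35), BBX28 (-1.53) and AT1G48610 (-1.06) on the negative side.

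Outside the nuclear genes, 8 of 127 plastid genes (median 0.76) and 5 of 104 mitochondrial genes (median 0.46) were higher in DM1-DM2d adr1s and 0 were lower. These shares, 6.3% and 4.81%, are near the 5.42% of all genes called higher, at organelle shares that were small in all 6 libraries. Groups of 3 libraries are too small to single out a library by its distance from the others.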

How the results depend on the processing

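The direct count of 2067 genes moved to 4464 (2461 higher, 2003 lower) in a fit of the 9 libraries of label batch 3, to 3464 in a fit of the 6 libraries alone, to 206 when a fold above 1.5 was tested (glmTreat) and to 775 at an adjusted p below 0.01. The smaller fits estimate the spread from fewer libraries; other causes were not tested. RLE (2060) and upper-quartile scaling (2049), no filter (1873), a minimum count of 50 (2226) and DESeq2 (3062) kept a surplus of higher genes. With a library left out the count ran from 972 to 1703, and 50.7 to 62.1% of calls were higher, against 60.6% in the main fit. Replicate numbers did not pair the lines (correlations of same-numbered deviations of 0.02, -0.044 and 0.076); with a replicate block 1683 genes passed.

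Against Col-0 adr1s the counts ran from 8430 to 9047 for DM1-DM2d adr1s and from 5384 to 6477 for DM6-DM7 adr1s with a library left out, and the latter was 4795 at an adjusted p below 0.01. With ADR1 intact it ran from 9633 to 12240, and in the difference of the differences from 8543 to 11146. In those 2 comparisons the share of higher calls (45% and 56.3%) became 52.9% and 47.9% with RLE scaling and 38.7% and 62.9% with the upper quartile, which moved their median over all genes to -0.178 and 0.208.

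The 275 named genes include many that were not called in the main fit. Only the called ones could lose the direct call, and 113 of those did under at least 1 alternative, so 113 is not a share of 275. Of those not called, 26 gained it, and 0 named genes were called in the other direction. The other sign was taken under some alternative by 13 genes that were not called, among them JOX1 (0.33, from -1.9 to 0.87). In the difference of the differences WRKY6 (-0.02) ran from -0.29 to 0.54 with a library left out, the highest without Col-0 14 DAS replicate 1, and AT5G63225 (-5.76) from -11.2 to 1.44, the highest without Col-0 14 DAS replicate 2; the cause was not tested. At 49723321 to 58867219 counts a library, genes below about 0.05 CPM rest on 3 counts or fewer.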

Other observations

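Stress genes outside the jasmonate lists were higher in small numbers, where 5.42% of all genes were higher. Of 17 abscisic acid and cold response genes 3 were higher and none lower (median 1.1), COR27 of the evening genes and the cold-regulated chloroplast proteins COR15A (3.55 ± 0.9, adjusted p = 0.0236) and COR15B (3.02), close copies that can share reads. Of 9 heat shock genes 2 were higher and none lower, DREB2A (1.55), a drought and heat factor, and HSP18.2 (1.36). COR15A passed in 2 of the 6 fits with a library left out, and the abscisic acid and cold list had 1 to 3 calls. Glutathione and redox genes gave 4 of 14 higher (0 to 2 with a library left out), and senescence and chlorophyll breakdown genes 4 of 12 (0 to 2), with ORE1 at 0.66, NYC1 at 0.5 and PAO at 0.34.

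Of 11 meristem and floral markers 4 were higher (5.42% of all genes), CUC1 (1.8), SEP3 (1.17), LOB (1.07) and KNAT1 (0.39), and 1 to 4 with a library left out. CUC1, which sets organ boundaries, was at 3.3, 3.84 and 2.48 CPM in DM1-DM2d adr1s, 0.766, 1.17 and 0.824 CPM in DM6-DM7 adr1s and 0.228, 0.346 and 0.486 CPM in Col-0 adr1s, 3 ranges that do not overlap. The shoot's age and the share of young tissue in it were not given, and their part was not tested.

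There were 4930 nuclear genes listed at 0 in all 20 libraries. MYC2, RPS2 and ADR1-L3 are among them, and no level is given for such genes.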
